A study of Drosophila melanogaster with 48 samples.

Results

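Peptidoglycan recognition proteins (PGRPs) and short Bomanins are immune genes of *Drosophila melanogaster*, and 10 of them were followed here in the heads of males fed menadione sodium bisulfite (MSB), a compound that generates reactive oxygen species. They were *PGRP-SA*, *PGRP-SD*, *PGRP-LC*, *PGRP-LF*, *PGRP-LB*, *PGRP-SB1*, *PGRP-SC2*, *BomS1*, *BomS2*, and *BomS3*, picked by gene symbol from the 13957 genes of the count table. They had been picked with their response to MSB in view, so that this response is described without a test, and tests are given only for other contrasts. All 10 passed the filter on low counts in every fit.

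PGRPs bind peptidoglycan of bacterial cell walls. Some are receptors that start the Toll or the Imd pathway, the major routes by which flies switch on antimicrobial genes in the fat body, the insect counterpart of liver and adipose tissue. Others are amidases that cut peptidoglycan and so dampen the signal, or lack binding and hold a receptor back. Bomanins are small secreted peptides that are induced through Toll and are needed for resistance to many Gram-positive bacteria and fungi.

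RNA sequencing was done on 48 libraries, each from the heads of 60 living males of 5 to 7 days. The 12 lines were a nondeletion and a deletion line (marked Δ) for the *MtnA* gene in each of the backgrounds M12 (M12N3, M12D3) and M9 (M9N1, M9D3) from Germany, C2 (C2N1, C2D3) from Cyprus, and KL (KL2 and KL1Δ, labelled KL02 and KL01) from Malaysia, and the 4 Zambian nondeletion lines ZI197, ZI254, ZI273, and ZI418. Stressed flies fed on 75 mM MSB for 24 h, or for 18 to 20 h in the Zambian lines, and controls received standard food, so that geographic range and length of exposure cannot be told apart. Every line was inbred or isofemale, and the lines of a German or Cypriot background came from 1 isofemale line. KL1Δ and KL2 were separate isofemale lines. A deletion line therefore differs from its partner in more than *MtnA*, above all in KL. Of the other pairs, the paper reports by far the most remaining genetic difference in M9 and the least in M12. By the labels each line had 2 control libraries, and it had 2 stress libraries except for ZI197 and ZI418 with 1 and ZI254 and ZI273 with 3. The study's methods give 2 for every line, and the labels were followed here. Stress replicate 3 of ZI254 and stress replicate 1 of ZI273 stood apart from the other stress libraries of their lines. Their chi-square per degree of freedom with these was 100.5 to 121.2, against 36.07 to 36.78 between the others. Values of this size also occurred between replicates elsewhere, with 118.6 between the controls of KL1Δ and 240.9 between those of C2. They do not by themselves show a wrong label. Each Zambian line's response depends on the labels of its libraries.

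The 24 controls held 27223075 to 63358011 counts each, and the 23 stress libraries used held 29414147 to 53939743. Stress replicate 1 of M9 was left out, as the study left out 1 stress library of M9 that its labels do not name. This library lay 151.5 from the median of the stress libraries on the first 2 principal components against at most 35.8 for any other, and 7 markers of testis and accessory gland summed to 1009 CPM (counts scaled to library size) in it against at most 1.37 elsewhere. Stress replicate 3 of ZI273 went against its male label, with yolk protein transcripts *Yp1* at 1456 and *Yp3* at 1216 CPM, where the highest of the other 46 libraries had 8.47 and 68.1. Several results are given with and without it. Markers of photoreceptors, neurons, and glia had a median sum of 42940 CPM in controls and 43830 under stress, and of these 11 genes 2 rose and the glial gene *repo* fell by 0.68 on the log2 scale (edgeR, adjusted p = 1.30e-12).

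Levels differed widely among the 10 genes. Per kb of exon, the median control level was highest for *BomS2* at 615 CPM, followed by *BomS3* at 260.9 and *BomS1* at 251.3. Among the PGRPs *PGRP-SB1* stood first in controls with 88.3 CPM per kb, and *PGRP-SC2* last with 0.745. Under stress *PGRP-SB1* had 6.21 CPM per kb and stood below every other PGRP described except *PGRP-SC2* with 2.29. The 3 Bomanins remained the highest of the 10, with 242.4, 143.7, and 103.5 CPM per kb for *BomS2*, *BomS3*, and *BomS1*.

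**Figure D1:**
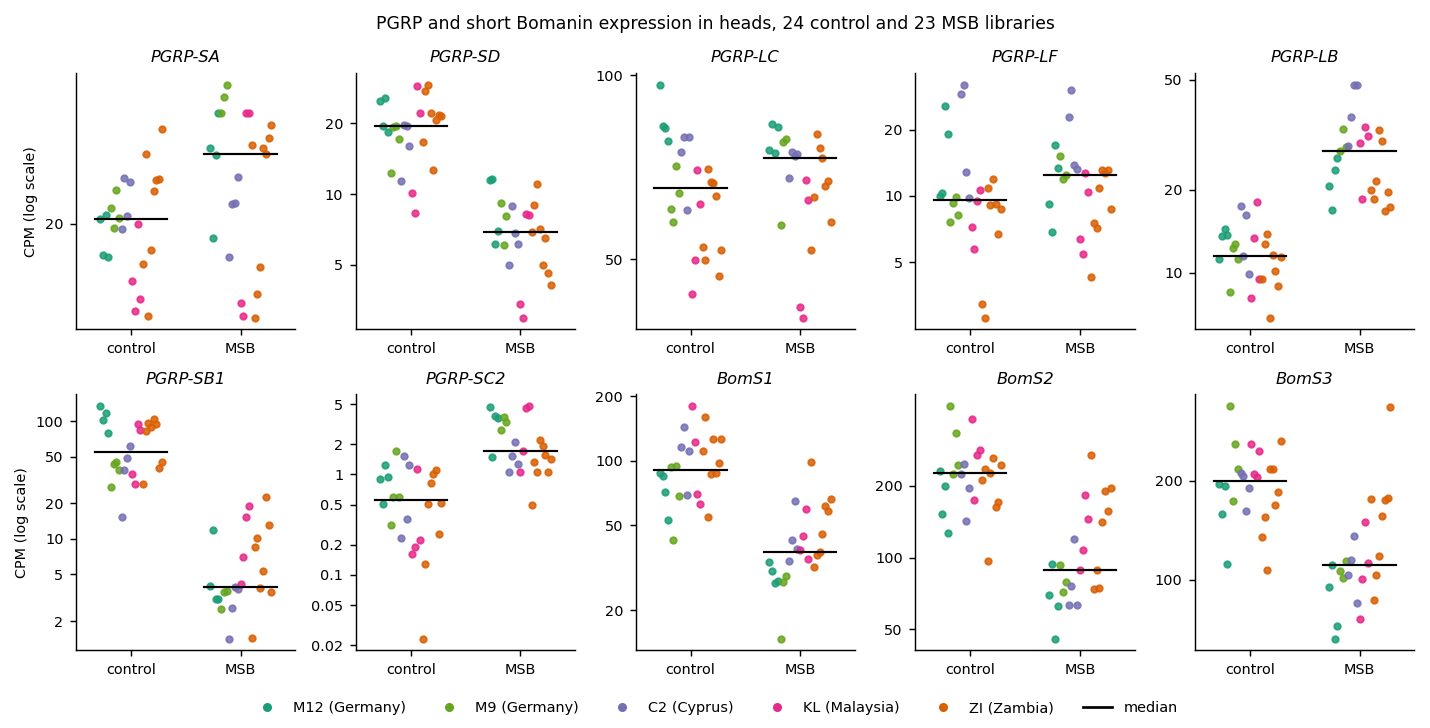
Expression of the 10 genes in CPM on a log scale, with 1 point for each of the 24 control and 23 MSB libraries, coloured by background, and a line at the median. The median of *PGRP-SB1* is 55.0 CPM in controls and 3.87 CPM with MSB, that of *PGRP-LB* 11.5 and 27.6 CPM, and the 2 treatments overlap in all 10 genes.

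The receptors and their helpers took different directions. *PGRP-SA* (FBgn0030310; X, 11561643 to 11562779) encodes the circulating receptor that triggers Toll on Gram-positive bacteria. It had a lowest, median, and highest level of 12.3, 20.6, and 32.8 CPM in controls and of 12.2, 28.9, and 41.5 CPM under stress. Its log2 fold-change over all lines was 0.39 (SE 0.13), with 9 lines higher and 3 lower, from -0.21 in C2 to 1.12 in KL1Δ. *PGRP-SD* (FBgn0035806; 3L, 7651180 to 7651900), a secreted protein that assists *PGRP-SA* and also helps bring peptidoglycan to the Imd receptor, went the other way, from 8.34, 19.5, and 29.2 CPM in controls to 2.98, 6.90, and 11.6 CPM. Its log2 fold-change was -1.42 (SE 0.14), all 12 lines were lower, and 17 of 23 stress libraries lay below the lowest control. The gene lies in an intron of *CG32373* and shares 35 bases of exon with *CG7492* on the opposite strand.

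*PGRP-LC* (FBgn0035976; 3L, 9338810 to 9348336), the membrane receptor of the Imd pathway, had medians of 65.5 CPM in controls and 73.2 CPM under stress. With a log2 fold-change of 0.08 (SE 0.08) and values between -0.21 and 0.25 in the 12 lines, it was the least variable of the 10. *PGRP-LF* (FBgn0035977; 3L, 9349609 to 9351489), a membrane protein that does not bind peptidoglycan and restrains *PGRP-LC*, lies next to it and had medians of 9.60 and 12.4 CPM. Its log2 fold-change of 0.08 (SE 0.21) hid lines that moved apart, from -0.58 in M12Δ to 0.87 in M9, and leaving out 1 library at a time gave values from -0.03 to 0.20.

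The amidases moved apart most. *PGRP-SB1* (FBgn0043578; 3L, 16727299 to 16727989), a secreted amidase that attacks peptidoglycan of the Gram-negative type, had 15.4, 55.0, and 134.6 CPM in controls and 1.42, 3.87, and 22.7 CPM under stress. The log2 fold-change was -3.24 (SE 0.30), or 9.43-fold lower, which is rank 6 from the lowest among 10514 tested genes. It was lower in 12 of 12 lines, from -5.28 in ZI197 to -2.36 in KL1Δ, and 21 of 23 stress libraries lay below the lowest control. The highest stress library was replicate 2 of ZI273 with 22.7 CPM, and the lowest control was replicate 1 of C2 with 15.4 CPM. In M12, where control levels were 134.6 and 102.6 CPM, the stress libraries had 3.99 and 11.8 CPM.

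*PGRP-LB* (FBgn0037906; 3R, 11452849 to 11460552), an amidase that is switched on by Imd and shuts it down again, had higher levels under stress. It had 6.90, 11.5, and 18.1 CPM in controls and 16.7, 27.6, and 47.9 CPM under stress, a log2 fold-change of 1.21 (SE 0.12). All 12 lines were higher, from 0.61 in M12 to 1.90 in C2Δ, and 20 of 23 stress libraries exceeded the highest control. The 2 stress libraries of C2Δ had 47.6 and 47.9 CPM against 16.2 and 9.91 CPM in its controls. *PGRP-SC2* (FBgn0043575; 2R, 8716950 to 8717695), an amidase known from the gut, was also higher in 12 of 12 lines, with medians of 0.555 and 1.71 CPM and a log2 fold-change of 1.78 (SE 0.29). It was rare, with 1 and 6 reads in the controls of ZI197 and 22 in the stress library of that line. The protease gene *Jon65Aiv* and the amylase gene *Amy-p* were among 4 of 5 tested midgut markers that rose in the same fit, with log2 fold-changes of 3.04 and 1.88, and the 12 midgut markers summed to 15.9 to 506.1 CPM in controls and 101.2 to 864.5 CPM under stress. Their part in the *PGRP-SC2* values was not tested.

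The 3 short Bomanins lie within a cluster on 2R. *BomS1* (FBgn0034329; 18383949 to 18384378) had 42.4, 90.7, and 179.7 CPM in controls and 14.8, 37.4, and 98.0 CPM under stress, with a log2 fold-change of -1.15 (SE 0.16) and all 12 lines lower. *BomS2* (FBgn0025583; 18386602 to 18387030) had 96.5, 225.7, and 432.6 CPM in controls and 45.6, 89.0, and 268.7 CPM with MSB. The log2 fold-change came to -1.01 (SE 0.17), with 11 lines lower and ZI197 at 0.28. *BomS3* (FBgn0040736; 18387895 to 18388734) changed least, at -0.65 (SE 0.13), from 107.2, 200.6, and 338.5 CPM to 66.1, 110.5, and 336.7 CPM, and 2 lines were higher, ZI197 at 0.29 and ZI418 at 0.61. Of the 23 stress libraries, 14, 14, and 11 lay below the lowest control of *BomS1*, *BomS2*, and *BomS3*.

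For reading these descriptions, 53.5% of all tested genes passed the threshold of an adjusted p of 0.05 in the same fit, 27.3% higher and 26.2% lower. The direction of mean CPM was the same in 12 of 12 lines for 27.2% of tested genes, 12.6% higher and 14.6% lower, and control and stress libraries did not overlap for 1.01%. Without stress replicate 3 of ZI273, the log2 fold-changes of *PGRP-SB1*, *PGRP-SD*, *PGRP-LB*, and *BomS1* were -3.29, -1.39, 1.24, and -1.17.

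**Figure D2:**
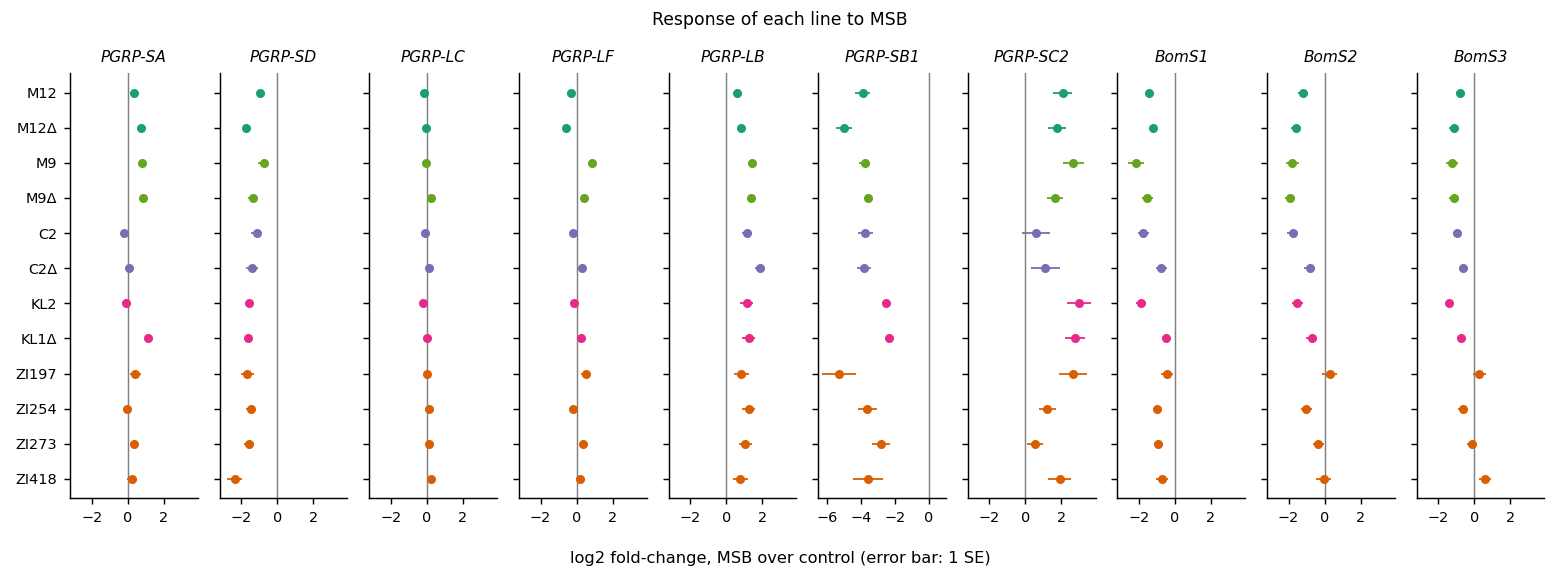
Log2 fold-change of MSB over control in each of the 12 lines, with 1 SE as error bar, for the 10 genes (the axis of *PGRP-SB1* has another range). *PGRP-SB1* lies between -5.28 and -2.36 in all lines, whereas *BomS3* is above 0 in ZI197 and ZI418.

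Fat body markers were divided, although their sum was lower under stress. The 9 markers summed to 4170 to 18740 CPM in controls (median 8572) and to 1143 to 6908 CPM under stress (median 1967), and no marker was at 0 in any library. The highest stress sum was that of stress replicate 3 of ZI273 and includes its yolk protein transcripts. The lipoprotein gene *apolpp* (log2 fold-change -2.01), the storage protein gene *Lsp2* (-2.07), the lipid synthesis gene *FASN1* (-1.57), and the feeding-induced gene *fit* (-4.09) fell, and the other 5 of the 9 were called higher. Of these, the 3 yolk protein genes rested on stress replicate 3 of ZI273. Without it, *Yp1* had a log2 fold-change of -0.49 (adjusted p = 0.151) in place of 5.63, *Yp2* had -0.86 (adjusted p = 0.0088) in place of 3.81, and *Yp3* had 0.19 (adjusted p = 0.541) in place of 1.41. The larval serum protein gene *Lsp1gamma* (3.07) and *Fbp1* (1.03) rose without that library too, from control medians of 0.184 and 0.144 CPM. The 4 that fell also fell without it. Of 7 hemocyte markers 6 fell, among them *Hml* by 1.87, with a summed range of 240.9 to 816 CPM in controls and 195 to 531.8 CPM under stress. In libraries of whole heads, fewer cells of a type and less RNA per cell cannot be told apart. Over the 47 libraries, after the mean of each treatment had been removed, the correlation with *apolpp* was 0.39 for *PGRP-SB1*, 0.12 for *PGRP-SD*, -0.10 for *BomS1*, -0.07 for *BomS2*, and -0.16 for *BomS3*, from 0.86, 0.76, 0.61, 0.59, and 0.49 before. With *FASN1*, the values with the treatment removed were 0.28, 0.03, 0.13, 0.18, and 0.32 in the same order, so that those of the Bomanins have the opposite sign. With *Lsp2* they were 0.33, -0.17, 0.12, 0.03, and 0.05, and with the hemocyte marker *Hml* 0.32, 0.19, 0.05, 0.01, and 0.25. Correlations were computed only with these markers, all of which fell, and not with *fit* or the fat body markers called higher. Among genes higher in every line, *PGRP-LB* had -0.80 with *apolpp* before and -0.28 after the treatment was removed. *PGRP-SC2* had -0.51 before and 0.22 after. These libraries share lines and a treatment, and the part of fat body RNA in the lower values was not tested.

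The remaining genes of both families were tested in the same fit. All 9 other Bomanins fell in the test over all lines, with a median log2 fold-change of -1.10 against 0.01 over all tested genes. *BomS6* (-1.55, SE 0.29, adjusted p = 1.19e-05), *BomS5* (-1.35), *BomBc1* (-1.32), *BomBc2* (-1.21), *BomT1* (-1.10), and *BomS4* (-1.02) had lower values than *BomBc3* (-0.67), *BomT3* (-0.57), and *BomT2* (-0.38, SE 0.16, adjusted p = 0.0388). Without stress replicate 3 of ZI273, 8 of the 9 were past the threshold and *BomT2* had an adjusted p of 0.0548. *BomT3* and *BomBc3* lie on 3R, away from the cluster, and *BomS4* and *BomBc2* overlap on opposite strands. Of the 6 other PGRPs, *PGRP-SB2*, *PGRP-SC1a*, and *PGRP-SC1b* did not pass the filter, with at most 0.365 CPM in any library. *PGRP-LA*, the neighbour of *PGRP-LC*, rose by 0.23 (SE 0.07, adjusted p = 0.00783) and *PGRP-LD* fell by 0.38 (SE 0.05, adjusted p = 4.96e-09), while the intracellular Imd receptor *PGRP-LE* had 0.19 (adjusted p = 0.0525). *PGRP-LD* shares 3563 bases of exon with *Pmi* on the same strand, so its reads may not be its own.

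The pathways upstream and their effectors held genes called in both directions, in shares to be read against the 27.3% of all tested genes called higher and 26.2% called lower. Of 19 Toll pathway genes 7 rose and 6 fell, with a median of 0.03. The transcription factor gene *dl* rose by 0.67 (SE 0.06, adjusted p = 5.30e-13) and the protease gene *spirit* by 0.62, whereas *SPE*, the protease that cleaves the Toll ligand, fell by 1.49 (SE 0.16, adjusted p = 2.66e-11) and *GNBP3*, a sensor of fungal glucans, by 0.82. Of 18 Imd pathway genes 9 rose and 1 fell, with a median of 0.12. *pirk*, an inhibitor that withdraws *PGRP-LC* from the cell surface, rose by 1.26 (SE 0.17, adjusted p = 1.20e-08) and *Rel*, the NF-kappaB factor of this pathway, by 1.07 (SE 0.10, adjusted p = 5.33e-13), and *eff* fell by 0.16. Of 20 antimicrobial peptide genes 13 were tested, of which 3 rose and 5 fell. *Drs*, an antifungal peptide gene, rose by 2.52 (SE 0.43, adjusted p = 2.22e-06) with a highest library of 494.9 CPM, *AttB* rose by 1.403, *Drsl4* fell by 2.44, and *Def* fell by 2.04. The median of this list was 0.15 and turned to -0.18 with line as a block, where 17 genes were tested. Without the Zambian lines it was 0.642, with 3 called higher and 3 lower among 14 tested. DESeq2 called 2 higher and 4 lower. *AttB* cannot be separated with certainty from its near-identical copy *AttA*. Of 7 other secreted immune-induced peptides, 3 fell, namely *Dso2* (-1.58), *Dso1* (-1.57), and *IM33* (-0.89). Without stress replicate 3 of ZI273, 1 of the 7 was also called higher.

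**Figure D3:**
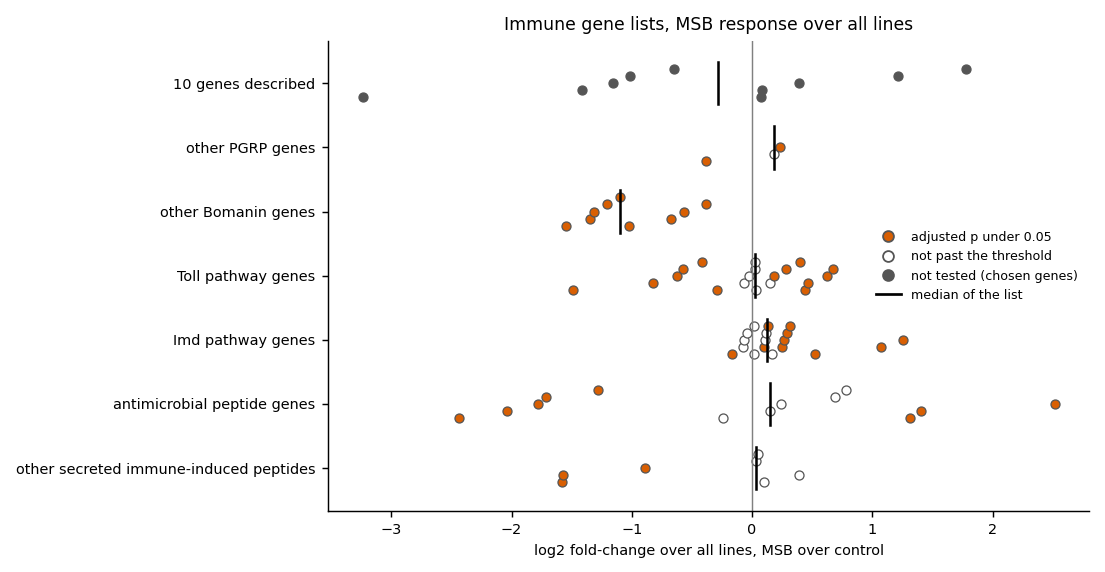
Log2 fold-change over all lines for each tested gene of 6 immune lists and for the 10 genes described, with the median of each list as a vertical line, filled where the adjusted p is under 0.05, and grey for the 10 genes, which were not tested. The 9 other Bomanins all lie below 0, while the Toll and antimicrobial peptide lists hold genes on both sides.

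The lines differed without MSB. In the test over the 12 lines in control libraries, 6 of the 10 genes passed the threshold, against 51.5% of all tested genes, so that their share is near that of the genome. The smallest adjusted p were those of *PGRP-LF* (1.11e-07), *PGRP-LC* (1.18e-04), and *PGRP-SB1* (0.00188), and these 3 calls held when any 1 of the 24 controls was left out. The call of *BomS1* (0.0278) was lost without control replicate 2 of KL1Δ (0.0529) or of M12Δ (0.0568) or control replicate 1 of KL2 (0.0721). That of *PGRP-SD* (0.0357) was lost in 8 of the 24 fits, most clearly without control replicate 1 (0.101) or 2 (0.152) of KL2, and that of *PGRP-SA* (0.0454) in 18 of 24, with adjusted p up to 0.126 without control replicate 2 of ZI418. Without control replicate 1 of KL2, 3 of the 10 genes passed. *PGRP-LB*, *PGRP-SC2*, *BomS2*, and *BomS3* did not pass (adjusted p = 0.871, 0.0977, 0.315, and 0.307).

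*PGRP-LF* had the smallest adjusted p of the 10 between lines in controls, although the rarer *PGRP-SC2* spanned a wider ratio, with line means of 0.0761 to 1.14 CPM. For *PGRP-LF*, C2 had 29.2 and 32.0 CPM and M12Δ had 25.7 and 19.2 CPM, and the highest library of the other 10 lines had 12.8 CPM. Below these came C2Δ with a mean of 11.3 CPM, ZI273 with 10.52, M12 with 10.2, KL1Δ with 10.02, ZI254 with 9.94, M9Δ with 9.05, M9 with 8.45, ZI418 with 7.71, and KL2 with 6.50, and neighbours in this order overlapped in their libraries. ZI197 was lowest, with 3.21 and 2.79 CPM, apart from every other line. For *PGRP-SB1*, line means in controls ran from 27.04 CPM in C2 to 118.6 CPM in M12, with M9, M9Δ, C2, KL2, and ZI418 at 27.04 to 42.5 CPM and M12, M12Δ, KL1Δ, ZI254, and ZI273 at 89.5 to 118.6 CPM. C2Δ and ZI197 lay between them, at 55.0 and 56.2 CPM, the latter from 29.3 and 83.2 CPM. *PGRP-LC* was lowest in KL2, at 44.0 and 49.9 CPM, and highest in M12, at 96.5 and 82.6 CPM.

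The comparison of deletion and nondeletion lines asks whether the *MtnA* deletion goes with another level of these genes in the same background. In controls it did so for 1 of the 10 genes in C2 (0.232% of all tested genes passed), for 4 of the 10 in KL (10.9%), and for none in M12 (0.1%) and M9 (2.28%). At an unadjusted p under 0.05, 693 and 1658 genes of all tested were found in the controls of M12 and M9 by edgeR, and DESeq2 called *PGRP-LF* in M12 (3.38e-05). In stress libraries 2 of the 10 passed in M12 (8%) and 6 in KL (21.7%), and none in M9 (1.97%) and C2 (0.204%), where 2226 and 621 of all tested genes had an unadjusted p under 0.05. By DESeq2, *PGRP-LC* passed in M9 (0.0229) and *PGRP-LF* in C2 (0.00223) under stress, and 8 calls were made in controls in place of 5, and 12 in place of 8 under stress.

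*PGRP-LF* differed in opposite directions in C2 and M12. In C2 the controls with the deletion had 12.8 and 9.76 CPM against 29.2 and 32.0 CPM without it, a log2 difference of -1.45 (SE 0.19, adjusted p = 0.0211). In M12 the controls with the deletion had 25.7 and 19.2 CPM against 9.94 and 10.4 CPM, a log2 difference of 1.16 (SE 0.19) that did not pass (adjusted p = 0.167). Under stress the order remained, with 13.9 and 13.2 CPM in C2Δ against 22.7 and 30.4 CPM in C2 (-0.95, SE 0.19, adjusted p = 0.181) and 17.0 and 13.4 CPM in M12Δ against 9.21 and 6.88 CPM in M12 (0.91, SE 0.19, adjusted p = 0.0247). No library of the lower line reached the higher line in either background or treatment. The difference between the 2 backgrounds, tested in 1 fit over all 47 libraries after the values had been seen, was 2.61 in controls (SE 0.29, adjusted p = 2.69e-06, with 0.459% of all genes called) and 1.86 under stress (SE 0.29, adjusted p = 3.63e-04, with 0.551% called). It stayed between 2.38 and 2.81 and between 1.63 and 2.08 when each of the 16 libraries was left out, with adjusted p up to 1.96e-04 and 0.0093.

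Within each background alone the calls were less stable. That of C2 controls was lost without control replicate 1 of C2 (0.0621), without control replicate 1 (0.0582) or 2 (0.131) of C2Δ, and without stress replicate 1 (0.0767) or 2 (0.0775) of C2Δ. That of *PGRP-LF* in M12 under stress was lost without stress replicate 1 of M12Δ (0.157), stress replicate 2 of M12 (0.0717), or control replicate 1 (0.0523) or 2 (0.0528) of M12. In 1 fit over all lines, *PGRP-LF* passed in M12 controls (adjusted p = 0.0059) and in C2 under stress (0.014).

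None of the neighbours of *PGRP-LF* passed the threshold in C2 or M12. *PGRP-LC*, which ends before it on the same strand, differed by -0.16 (SE 0.15) in C2 and -0.15 (SE 0.11) in M12 controls, and *PGRP-LA* by -0.10 (SE 0.15) and 0.10 (SE 0.09), none past the threshold. *UGP*, which makes UDP-glucose, runs on the opposite strand and shares 602 bases of exon with *PGRP-LF*. It differed by 0.37 (SE 0.21, adjusted p = 0.946) in C2 and by -0.42 (SE 0.13, adjusted p = 0.629) in M12 controls, the reverse sign of *PGRP-LF*. Under stress it differed by 0.52 (SE 0.21, adjusted p = 0.785) in C2 and by -0.52 (SE 0.13, adjusted p = 0.0512) in M12, again the reverse and in M12 next to the threshold. It had 265 to 453 CPM in the controls of these 4 lines. The counting is not stated to use strand, so reads of the shared stretch cannot be assigned to either gene with certainty.

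**Figure D4:**
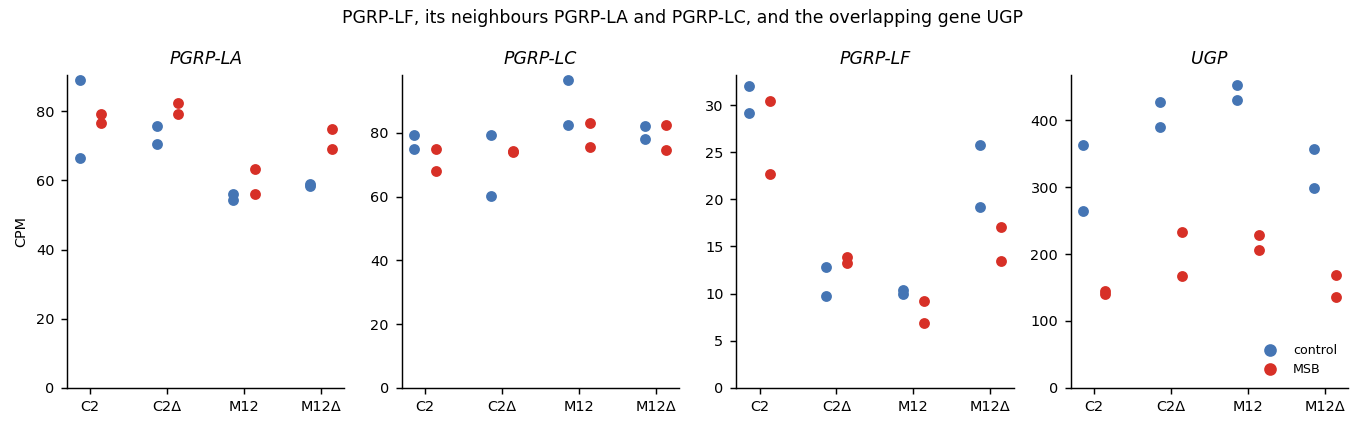
Expression in CPM, from 0, of *PGRP-LA*, *PGRP-LC*, *PGRP-LF*, and *UGP* in the 2 control and 2 MSB libraries of C2, C2Δ, M12, and M12Δ, with 1 point for each library. *PGRP-LF* is higher in C2 than in C2Δ and lower in M12 than in M12Δ, and *UGP* orders both pairs of lines the other way in both treatments.

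In KL, with its separate isofemale lines, 3 of the 7 PGRPs were called higher in the deletion line in controls and 6 of the 7 under stress. Of all tested genes, 10.9% were called in controls and 21.7% under stress, in either direction. The share called higher alone is not given here. *PGRP-SB1* had 94.4 and 84.6 CPM in the controls of KL1Δ against 35.6 and 29.1 CPM in KL2, a log2 difference of 1.45 (SE 0.22, adjusted p = 0.00483). Under stress it had 15.2 and 19.0 against 4.13 and 6.94 CPM (1.63, SE 0.24, adjusted p = 0.00214). *PGRP-SD* differed by 1.45 (SE 0.16, adjusted p = 0.00107) in controls, with 28.9 and 22.1 against 10.1 and 8.34 CPM, and by 1.38 (SE 0.17, adjusted p = 0.00105) under stress. *PGRP-LC* differed by 0.47 (adjusted p = 0.0308) and 0.68 (adjusted p = 0.00361). Every call of *PGRP-SB1* and *PGRP-SD* in KL held when each of the 8 libraries was left out, although *PGRP-SB1* had an adjusted p of 0.0535 in controls in 1 fit over all lines, whereas *PGRP-LC* lost its call in controls without control replicate 1 (0.214) or 2 (0.0687) of KL2, or control replicate 1 (0.0787) or stress replicate 1 (0.0609) of KL1Δ.

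*PGRP-SA*, *PGRP-LF*, and *PGRP-SC2* passed in KL under stress. *PGRP-SA* had 35.7 and 35.8 CPM in KL1Δ under stress against 13.2 and 12.3 CPM in KL2 (1.505, SE 0.18, adjusted p = 8.18e-04), from 19.99 and 13.5 against 14.8 and 12.6 CPM in controls. The difference of the responses, 1.23 (SE 0.25), was not past the threshold (adjusted p = 0.0620, with 1.23% of all tested genes called) and passed by DESeq2 (0.00111). *PGRP-LF* differed by 0.99 (SE 0.17, adjusted p = 0.00474) under stress and by 0.60 (SE 0.17, adjusted p = 0.0601) in controls, where DESeq2 called it (0.0363). *PGRP-SC2* differed by 1.97 (SE 0.73, adjusted p = 0.126) in controls, where DESeq2 also called it (0.0332). Neither had a difference of the responses past the threshold (adjusted p = 0.485 and 0.926). Under stress *PGRP-SC2* differed by 1.76 (SE 0.49, adjusted p = 0.0358), a call that was lost in 6 of 8 fits without 1 library, with adjusted p up to 0.144. These were without stress replicate 1 (0.136) or 2 (0.136) of KL1Δ, and without stress replicate 1 (0.144) or 2 (0.0695) or control replicate 1 (0.0547) or 2 (0.0541) of KL2.

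*BomS1* went against the PGRPs in KL controls, with 69.6 and 62.8 CPM in KL1Δ against 179.7 and 122.2 CPM in KL2 (-1.21, SE 0.26, adjusted p = 0.0221). That call was lost without control replicate 1 (0.0626) or 2 (0.0944) of KL1Δ or control replicate 1 of KL2 (0.139). Under stress the lines had 59.4 and 34.6 against 38.2 and 44.4 CPM and overlapped. The difference of the *BomS1* responses, 1.41 (SE 0.36), did not pass by edgeR (adjusted p = 0.122) and did by DESeq2 (0.00592). *BomS2* and *BomS3* did not pass in KL under stress by edgeR (adjusted p = 0.122 and 0.0702), whereas DESeq2 called both higher in KL1Δ (0.0416 and 0.0268). In M12 under stress *PGRP-SD* was lower in the deletion line, with 6.14 and 6.98 against 11.5 and 11.6 CPM (-0.82, SE 0.18, adjusted p = 0.0304), the reverse of KL. Without stress replicate 1 (0.175) or 2 (0.103) of M12Δ or stress replicate 2 of M12 (0.0520) it did not pass. Without stress replicate 1 of M12, the number of calls under stress went from 8 to 12.

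**Figure D5:**
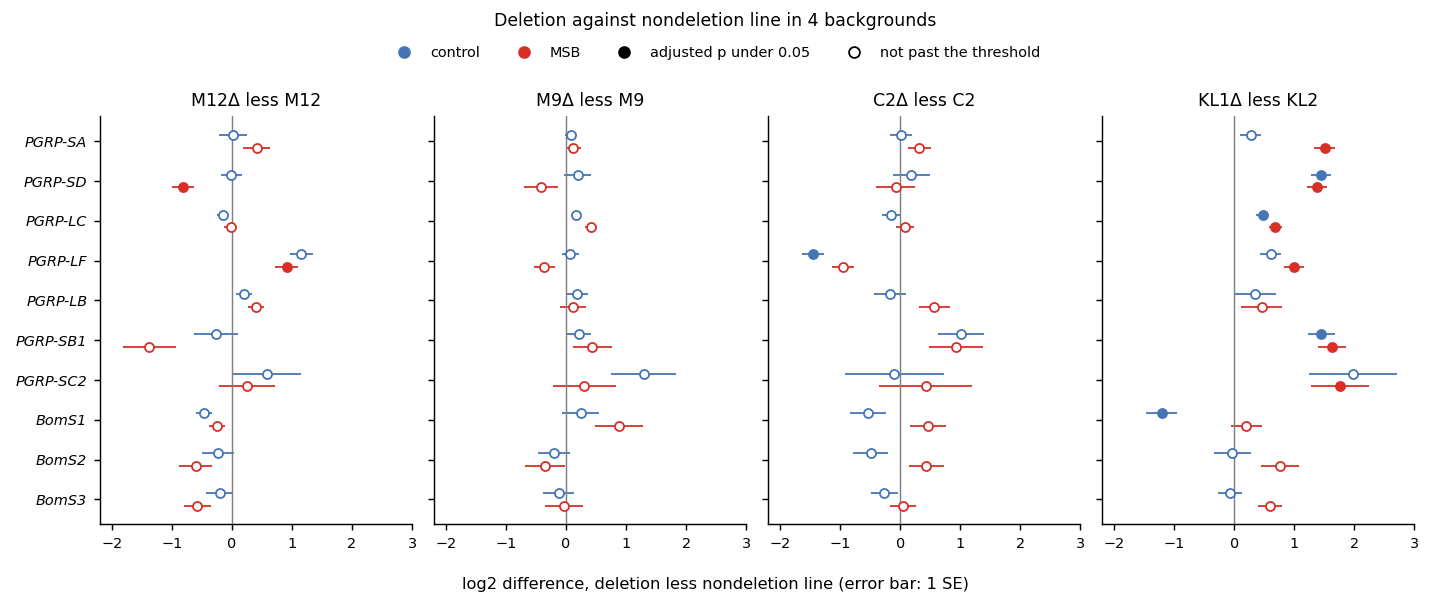
Log2 difference of the deletion less the nondeletion line in 4 backgrounds, in controls and under MSB, with 1 SE as error bar and filled where the adjusted p is under 0.05. *PGRP-LF* lies at 1.16 in M12 and -1.45 in C2 controls, and in KL *PGRP-SB1* and *PGRP-SD* lie between 1.38 and 1.63 in both treatments.

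Whether the deletion changed the response itself was tested over the 8 lines outside Zambia with line in the model. None of the 10 genes passed (0.159% of all tested genes did, and 1509 had an unadjusted p under 0.05), nor did any by DESeq2. The largest value was that of *BomS1* at 0.76 (SE 0.25, adjusted p = 0.179), followed by *PGRP-SA* at 0.52 (SE 0.21, adjusted p = 0.268).

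Between Zambian and cosmopolitan lines, which also differed in length of exposure, the response of *BomS3* differed. It had a mean log2 fold-change of 0.03 ± 0.54 (SD, n = 4) in Zambian lines and -1.01 ± 0.27 (SD, n = 8) in the others, and the difference in the fit over libraries was 0.89 (SE 0.20, adjusted p = 0.0279), with 0.495% of all tested genes called. In ZI418 it went from 185.1 and 264 CPM to 336.7 CPM, in ZI197 from 134.7 and 155 to 175.8 CPM, and in KL2 from 258.3 and 209.8 to 75.9 and 100.7 CPM. *BomS2* had -0.28 ± 0.55 (SD, n = 4) against -1.43 ± 0.45 (SD, n = 8) and a difference of 1.00 (SE 0.25) that did not pass by edgeR (adjusted p = 0.0569) and did by DESeq2 (0.0123), and *BomS1* had 0.52 (SE 0.23, adjusted p = 0.356). ZI254 lay among the cosmopolitan lines, at -1.01 for *BomS2* and -0.64 for *BomS3*. With the 12 lines as units, an exact two-sided permutation test of each of the 10 genes gave p = 0.00404 for *BomS3*, p = 0.00606 for *BomS2*, and p = 0.0667 for *BomS1*, not adjusted, where the smallest possible is 0.00202. This test takes the paired lines as independent. The call of *BomS3* was lost without the only stress library of ZI418 (0.115) or of ZI197 (0.0813), without control replicate 1 of ZI418 (0.0547), and without control replicate 2 of ZI273 (0.0589), and it held without stress replicate 3 of ZI273 (0.0382), stress replicate 1 of ZI273 (0.0319), or stress replicate 3 of ZI254 (0.0360). None of the 7 PGRPs passed, the nearest being *PGRP-SD* at -0.37 (SE 0.20, adjusted p = 0.462).

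Without MSB none of the 10 genes differed between the ranges past the threshold, with each line's controls summed to 1 unit (0.0362% of all tested genes were called, and 1207 had an unadjusted p under 0.05), and none did by DESeq2. *PGRP-LF* had the largest difference, -0.81 (SE 0.45, adjusted p = 0.568). The *BomS2* and *BomS3* controls differed by -0.30 (SE 0.19) and -0.23 (SE 0.15).

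Over all lines, a difference of the response between the 12 lines passed for *PGRP-LF* (adjusted p = 0.0393) and *BomS3* (0.0428), against 9.66% of all tested genes. *PGRP-LF* responded by 0.87 in M9, from 7.64 and 9.26 CPM to the 15.2 CPM of its only stress library used, and by -0.58 in M12Δ, from 25.7 and 19.2 to 17.0 and 13.4 CPM. Both calls stand near the threshold. Without stress replicate 3 of ZI273 they had adjusted p of 0.0547 and 0.0613, and they were lost in 17 and 23 of 47 fits without 1 library, with adjusted p up to 0.116 without stress replicate 2 of M9, which leaves that line none, and up to 0.159 without the stress library of ZI418. *PGRP-SA* had 0.0531 and *BomS2* 0.0692.

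Over the log2 CPM of 47 libraries, the 45 pairs of the 10 genes had Pearson correlations between -0.37 and 0.84 after each treatment's mean had been removed, with a median of 0.10. Of these, *BomS2* and *BomS3* had 0.91 over all libraries and 0.84 with the treatment removed, and *BomS1* and *BomS2* had 0.81 and 0.61. *PGRP-SB1* and *PGRP-SD* had 0.82 over all libraries and 0.35 with the treatment removed. *PGRP-LC* and *PGRP-LF*, which are neighbours, had 0.59 and 0.58. With the treatment removed, *PGRP-SC2* had 0.55 with *PGRP-LC* and 0.50 with *PGRP-LF*, *PGRP-SD* had 0.47 with *PGRP-LC*, and *PGRP-LB* had 0.43 with *PGRP-LF*. Between the families, *PGRP-LB* and *BomS2* had -0.71 over all libraries and -0.32 with the treatment removed, and *PGRP-SB1* and *BomS2* had 0.66 and 0.12. Of all other genes, the most like *PGRP-SB1* were *CG1092*, *Ork1*, and *dsx*, with 0.93, 0.93, and 0.92 over all libraries and 0.75, 0.68, and 0.58 with the treatment removed. Those most like *PGRP-SD* were *Npc2h*, *ssp7*, and *TRAM*, with 0.87, 0.86, and 0.86, and those most like *BomS1* were *BomBc2*, *Irk2*, and *Tmem214*, with 0.83, 0.81, and 0.78. These are descriptions, since all libraries share the treatment and their lines. How reads that map to several genes were counted is not given in the sources used here, so the similar Bomanin transcripts may share reads.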

How the data were processed

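The deposited table holds unnormalized read counts for each gene, which the authors made from poly-A RNA sequenced in paired-end reads and mapped with NextGenMap to the FlyBase transcriptome. The counting program and its use of strand are not given in the sources used here. Columns were matched to samples by name, and 47 libraries were used. Replicates are biological replicates of a line. The genes, lists, and tests were chosen with earlier results of these data known. Tests were run on counts in R 4.3.3 with edgeR 4.0.16 (TMM, filterByExpr, two-sided quasi-likelihood F tests, Benjamini-Hochberg over all tested genes, threshold 0.05), with treatment alone over all lines, 1 group per line and treatment within each background, or line in the model. SE is the log2 fold-change over the square root of F. Where a line has a single stress library, its spread is taken from the other groups of the fit. CPM uses TMM library sizes, with a prior count of 2 for log2 CPM in correlations. Genes named from the lists are the 2 largest rises and falls among those called, all genes of both families, the 3 most correlated genes of *PGRP-SB1*, *PGRP-SD*, and *BomS1*, and pairs among the 10 genes, of which those printed were chosen after their values were seen. Alternatives were DESeq2 1.42.0, RLE size factors, no low-count filter, all 48 libraries, the other M9 stress library left out, line or replicate number as a block, no Zambian or no Malaysian lines, 1 fit over all lines, other units, and each library left out in turn. The comparison of the *PGRP-LF* difference between M12 and C2 was chosen after seeing the data. On simulated counts, of 200 genes changed by 1 on the log2 scale 90.5% were called over all lines (among 10490 genes). Between the controls of C2Δ and C2 59% were called (10686 genes). For line by treatment 28% were called (11094 genes), with the change put into the stress libraries of C2 alone. The simulated lines shared the same control mean of each gene, so the 90.5% leaves out differences between lines and may be too high for the real libraries. Replicate numbers were not used to pair libraries, except where they entered as a block. The correlation of the deviations of same-numbered libraries lay between -0.082 and 0.22 in 7 lines. These values do not settle whether the numbers pair samples. Gene positions are those of assembly BDGP6.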

Additional observations from a re-analysis of the deposited data

Results flagged for a closer look

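The response of *BomS3* differed between Zambian and cosmopolitan lines by 0.892 on the log2 scale (edgeR, adjusted p = 0.0279), and was above 0 in 2 of 4 Zambian and in none of 8 cosmopolitan lines. The response differed between the 12 lines for *PGRP-LF* (edgeR, adjusted p = 0.0393) and for *BomS3* (adjusted p = 0.0428), against 9.66% of all tested genes. These calls were lost in 17 and 23 of 47 fits without 1 library, and both were lost without stress replicate 3 of ZI273. The difference of the deletion and the nondeletion line in *PGRP-LF* was higher in M12 than in C2 by 2.61 in controls (adjusted p = 2.69e-06) and by 1.86 under stress (adjusted p = 3.63e-04), with all 4 libraries of each higher line above all 4 of its partner. This comparison was chosen after the values had been seen, and its adjusted p do not allow for that choice. Within each background by edgeR, C2 controls (0.0211) and M12 under stress (0.0247) passed. M12 controls (0.167) and C2 under stress (0.181) did not. The stress library of M9 that entered no comparison carried 1009 CPM of testis and accessory gland markers, where controls had at most 0.858 CPM.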

How the results depend on the processing

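The direction of each of the 10 responses over all lines was the same under 8 other settings and 47 fits without 1 library, with the exception of *PGRP-LF*, whose value changed sign in 1 of the latter. The number of calls between deletion and nondeletion lines in controls was 5, against 8 by DESeq2, 4 with the replicate block, and 3 to 6 without 1 library, with 3 without control replicate 1 of KL1Δ or of KL2. Under stress it was 8, and 6 to 12 without 1 library. Line differences in controls were called for 6 genes, and for 3 to 7 without 1 library. For line by treatment, 2 genes were called, against 5 by DESeq2, 1 with all 48 libraries, 5 with the other M9 stress library left out, 2 with the replicate block, and 0 to 4 without 1 library. For the response of Zambian against cosmopolitan lines, 1 gene was called, against 2 by DESeq2, 2 at an unadjusted exact p under 0.05 over 12 lines, 0 with the replicate block, where *BomS3* had an adjusted p of 0.286, and 0 to 2 without 1 library. Whether the replicate number pairs samples is not known. As a block it also lost *BomS3* for line by treatment (0.164) and *PGRP-LC* in KL controls (0.0683). In 1 fit over all lines *PGRP-SB1* in KL controls had 0.0535 and *PGRP-SD* in M12 under stress 0.126. The causes were not tested. Low counts limit *PGRP-SC2*, and groups of 1 or 2 libraries limit every comparison between lines.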

Other observations

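In the stress library of M9 that was left out, *PGRP-SB1* had 2.03 CPM, *PGRP-SC2* 3.58, *PGRP-LB* 34.1, *PGRP-SD* 5.73, *PGRP-SA* 30.4, *PGRP-LC* 68.3, and *PGRP-LF* 12.2 CPM, all within the range of the 23 stress libraries used. *BomS1* had 11.2 CPM, below the lowest of those libraries with 14.8 CPM, while *BomS2* with 47.4 and *BomS3* with 71.8 CPM lay near their lower ends of 45.6 and 66.1 CPM.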
